A study of Homo sapiens with 12 samples.

Results

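This is an account of the statistical interaction between anastrozole and estradiol (E2) in T47D cells: which genes, in cells given both agents, lay above or below the level that the separate effects of the agents add up to. All 12 RNA-seq libraries of the series, 3 in each of 4 groups, entered a 2 x 2 design, and 21132 of the 25370 genes in the count table had at least 1 read and were tested. T47D is an established luminal breast cancer line that expresses estrogen receptor alpha and progesterone receptor. The cells were kept for 48 h in medium with 5% charcoal-stripped serum and then for 24 h without serum before treatment with vehicle, anastrozole (10 nM), E2 (0.1 nM), or 10 nM anastrozole plus 0.1 nM E2. The sample labels give a treatment time of 12 h, while the methods of the study give a longer one, so the time is uncertain. The libraries held between 9914253 (anastrozole b) and 17009776 (E2 b) reads counted in genes, so that 3 reads, taken as the floor of detection, were worth 0.176 to 0.303 CPM (reads per library scaled to a common total with TMM factors).

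Estradiol binds estrogen receptor alpha, a nuclear receptor that then acts on enhancers of target genes. Anastrozole, a drug given after menopause against hormone receptor-positive breast cancer, blocks aromatase, the enzyme that CYP19A1 encodes and that turns androgens into estrogens. In the model used here, each agent multiplies the level of a transcript by its own factor, whatever the other does. Their log2 effects against vehicle would then add up in the combination. The interaction term, the combination effect minus the anastrozole effect minus the E2 effect, would be 0. Additivity of CPM is another possible definition and gives another expected level. A positive interaction is called here above the sum, a negative one below the sum. CYP19A1 itself had 0 reads in every vehicle and anastrozole library, 0, 1 and 0 reads after E2 and 2, 0 and 2 after the combination, which is under the floor, so no interaction can be given for the aromatase gene in these cells. ESR1, encoding the receptor, was well expressed, and its interaction of 0.08 did not pass the test (QL adjusted p = 0.466).

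Some of the genes that stood out belonged to a few biological groups, while others, such as TXNIP and APRT, were in none of the lists counted here. Of 47 interferon-stimulated genes 23 were called above the sum and none below (20 and none with the GC offset described below), against 5.93% and 4.93% of all genes (1.34% and 1.38% with the offset), mostly genes with negative effects of each agent alone. They were led by MX1, whose mean of vehicle, anastrozole, E2 and combination libraries was 138.9, 79.5, 91.0 and 91.9 CPM. Of 50 hypoxia-inducible and glycolytic genes 18 were called below the sum and 3 above (18 and none with the offset), against the same shares of all genes, 4.93% below and 5.93% above (1.38% and 1.34%). Those below included ERO1L, P4HA1 and VEGFA, which each agent alone had raised. The zinc importer SLC39A10 and the metallothionein MT2A differed from vehicle by far more in the combination than with either agent. Most other departures were small and followed the base composition of the transcripts.

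The libraries differed in that respect before any gene is considered. Within each library, the deviation of log2 CPM from the mean over all libraries was compared with the GC content of each gene's longest transcript, over the 10863 genes that averaged at least 3 log2 CPM and had an annotated transcript. The rank correlation across genes (genes are not independent replicates) was 0.46 in vehicle a, 0.063 in vehicle b and 0.44 in vehicle c, while the combination libraries gave 0.409, 0.34 and 0.361. It was -0.418, -0.319 and -0.499 after E2, and -0.608, -0.369 and 0.269 after anastrozole. Anastrozole c therefore went against the other libraries of its group, and the counts of anastrozole a and c were the least alike of any pair within a group (chi-square per degree of freedom 4.62, against 1.27 to 2.56 for the other pairs). Since the vehicle and combination libraries lean one way and most single-agent libraries the other, this trend enters the interaction directly. The main counts are therefore given beside its value after a GC offset, in which each library's own trend on GC content was removed before the same test. A real response that happens to track GC content would be taken out by the offset too, and the source of the trend was not tested.

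At an adjusted p under 0.05 in edgeR's quasi-likelihood (QL) test, 2295 genes departed from the sum, 10.9% of those tested. Of these, 1253 (5.93%) lay above the sum and 1042 (4.93%) below it. Among the 2295, 2198 came from the 11052 genes averaging at least 3 log2 CPM, so shares of all genes lie under those of well expressed genes. No list's share was tested against that of all genes. With the GC offset the numbers were 576 genes (2.73%), 284 above (1.34%) and 292 below (1.38%), and 367 genes were called both ways, 177 above and 190 below, all in the same direction. Without the offset 4669 genes had an unadjusted p under 0.05, and with it 2755. In the same 12-library fit the anastrozole effect against vehicle passed the test in 1229 genes (5.82%), the E2 effect in 2194 (10.4%) and that of the combination in 851 (4.03%). Leaving out anastrozole c gave 3206 departing genes, 1734 above and 1472 below, or 566 with the GC offset (287 above and 279 below). Leaving out anastrozole a gave 1537, with 824 above the sum. The departures were small in size. The median absolute interaction of the called genes was 0.289 log2 units, 0.262 with the GC offset, and of 2198 called genes averaging at least 3 log2 CPM only IL32 exceeded 1 unit.

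**Figure D1:**
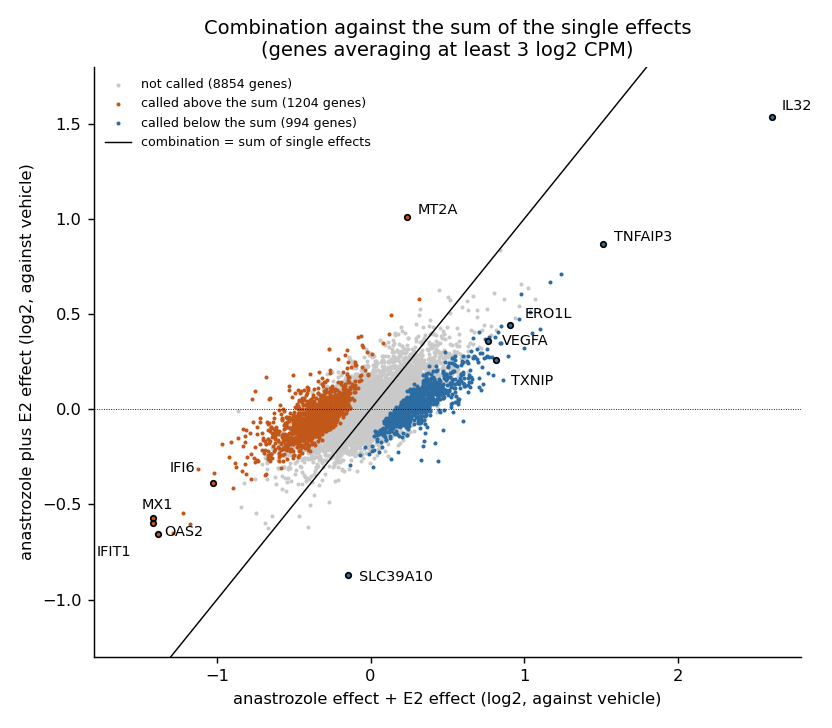
Each point is a gene averaging at least 3 log2 CPM, placed by the sum of the anastrozole and E2 effects (x axis) and the effect of the combination (y axis, both log2 against vehicle), with additivity as the black line. Genes called above the sum (orange) lie mostly at negative sums and those called below it (blue) at positive sums, while SLC39A10 and MT2A sit apart and 1 gene falls outside the axes.

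The GC content of the departing genes differed by direction. Its median was 60.2% in the genes above the sum and 39.7% in those below, against 47.7% over all genes averaging at least 3 log2 CPM, and across those genes the rank correlation between interaction and GC content was 0.704 (0.013 after the offset). When the genes were cut into 5 bins of GC content, the lowest bin had 561 of 2175 genes called below the sum and 10 above, and the highest had 797 of 2169 above and 6 below. With the offset the lowest bin had 63 above and 41 below, and the highest 49 above and 52 below. The interferon-stimulated genes did not follow this line, since they lay above the sum with a median GC content of 46.9%, close to that of all genes.

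**Figure D2:**
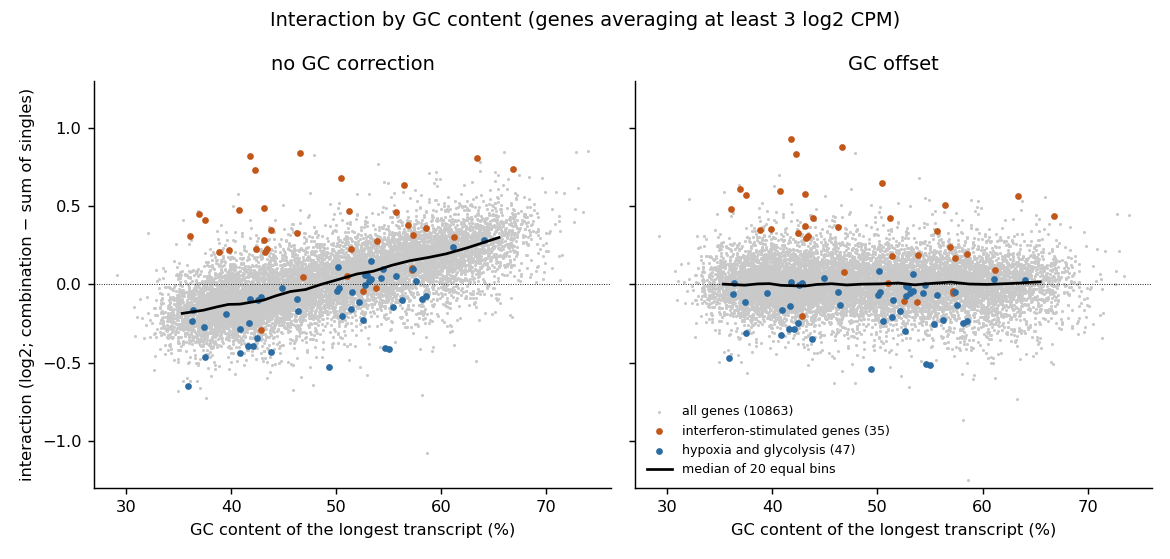
Interaction (log2, y axis) against GC content of the longest transcript (x axis) without correction (left) and with the GC offset (right), for genes averaging at least 3 log2 CPM. The median of equal bins (black) climbs in the left panel and is flat in the right, while the interferon-stimulated genes (orange) lie mostly above it and the hypoxia and glycolysis genes (blue) mostly at or below it in both.

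Interferon-stimulated genes encode antiviral effectors that are switched on by type I and III interferons. Many of their promoters carry the interferon-stimulated response element, whose core was searched here on both strands as GAAA, any 2 bases and GAAA again. The core was present in 3.57% of the 35116 RefSeq promoters (GRCh38.p14, windows of 300 bases around the start) and in 27 of the 39 list members with a promoter in that table (69.2%). The promoters of 3 members that moved together are shown because they belong to the most strongly departing group of genes. Capitals mark the core, or its reverse complement, and such a match is a description of the sequence only.
MX1 (chr21:41420308-41420607, plus strand): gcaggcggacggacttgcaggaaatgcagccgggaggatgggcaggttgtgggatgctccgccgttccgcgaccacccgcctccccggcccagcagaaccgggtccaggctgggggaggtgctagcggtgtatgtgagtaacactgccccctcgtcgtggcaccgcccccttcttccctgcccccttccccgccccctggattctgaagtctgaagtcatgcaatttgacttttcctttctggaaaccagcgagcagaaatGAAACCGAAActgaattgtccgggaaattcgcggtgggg
IFIT1 (chr10:89392373-89392672, plus strand): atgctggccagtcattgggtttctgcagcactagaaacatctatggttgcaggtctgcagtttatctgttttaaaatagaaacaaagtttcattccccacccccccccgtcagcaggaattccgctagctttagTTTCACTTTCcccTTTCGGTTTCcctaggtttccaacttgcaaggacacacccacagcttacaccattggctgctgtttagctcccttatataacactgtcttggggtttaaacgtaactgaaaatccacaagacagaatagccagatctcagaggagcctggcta
IFI6 (chr1:27672143-27672442, minus strand): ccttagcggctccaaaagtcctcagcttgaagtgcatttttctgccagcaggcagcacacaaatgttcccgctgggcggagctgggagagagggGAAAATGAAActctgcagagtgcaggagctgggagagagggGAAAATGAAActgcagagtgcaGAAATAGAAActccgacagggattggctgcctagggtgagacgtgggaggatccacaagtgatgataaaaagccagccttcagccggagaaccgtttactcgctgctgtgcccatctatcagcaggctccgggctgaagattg
The match lies 11 to 20 bases after the start in MX1, while IFIT1 carries 2 matches on the opposite strand and IFI6 carries 3 on its own strand, all before the start.

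Of the 47 interferon-stimulated genes tested, 23 were called above the sum and none below, against 5.93% and 4.93% of all genes. With the GC offset 20 were above and none below, against 1.34% and 1.38%, and 17 were above in both fits. The 35 members averaging at least 3 log2 CPM had a median anastrozole effect of -0.32, a median E2 effect of -0.21 and a median combination effect of -0.18, which gave a median interaction of 0.32 (0.35 with the offset), against -0.003 (0.002) over all genes. Summed over the list, the level was 2379, 2344 and 2343 CPM in the vehicle libraries and 1853, 1829 and 1832 after anastrozole. After E2 it was 1992, 2018 and 2024, and after the combination 1989, 2008 and 2010. All treated libraries were therefore below all vehicle libraries, and the combination libraries overlapped those of E2 and lay above all those of anastrozole. In other words, the group was lowest with anastrozole, less low with E2, and with both agents about as low as with E2 alone. Over the 12 fits that left out a library, 20 to 23 members were above the sum.

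MX1, a dynamin-like GTPase that blocks replication of influenza and other viruses (GRCh37 chr21:42791947-42841998), had the smallest interaction p of all genes called above the sum. MX1 measured 136.5, 142.8 and 137.5 CPM in the vehicle libraries, 76.7, 77.9 and 84.0 after anastrozole, 94.4, 89.1 and 89.6 after E2 and 89.4, 89.7 and 96.6 after the combination. The vehicle libraries lay above all others, and no combination library came near the 52.1 CPM that the single effects add up to. The anastrozole effect was -0.81, the E2 effect -0.61 and the combination effect -0.60, and the interaction was 0.82 ± 0.066 (log2, SE), QL adjusted p = 8.82e-31. Read the other way, E2 lowered MX1 in the absence of anastrozole but raised it by 0.21 in its presence (QL adjusted p = 0.00155). The offset moved the interaction to 0.93 (QL adjusted p = 1.13e-52).

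IFIT1 binds viral RNA that lacks proper cap methylation (chr10:91152303-91166244). IFIT1 measured 62.9, 58.2 and 57.2 CPM in the vehicle libraries, 35.8, 31.9 and 31.3 after anastrozole, 41.6, 39.2 and 41.8 after E2 and 38.2, 34.7 and 40.3 after the combination. The treated groups all lay under vehicle, and the combination libraries fell between the single agents or overlapped them (interaction 0.73 ± 0.094 (log2, SE), QL adjusted p = 9.15e-12). IFI6, an interferon-inducible membrane protein that limits flavivirus replication (chr1:27992575-27998723), was lowered more by anastrozole (-0.73) than by E2 (-0.29). IFI6 measured 152.1, 133.9 and 140.2 CPM in the vehicle libraries, 76.5, 93.5 and 87.6 after anastrozole, 112.1, 119.9 and 115.4 after E2 and 107.2, 110.1 and 108.2 after the combination. Here the combination stood just under E2 and well above anastrozole, and the interaction was 0.64 ± 0.064 (log2, SE), QL adjusted p = 1.88e-19. OAS2 and OAS3, neighbouring genes on chromosome 12 for synthetases of the 2-5A messenger that activates RNase L, had interactions of 0.84 ± 0.102 and 0.47 ± 0.057 (QL adjusted p = 4.17e-13 and 3.91e-13). HELZ2, a helicase and nuclear receptor coactivator induced by interferon but not a member of the list counted here, lay 0.67 ± 0.063 above the sum, but its transcript is rich in GC and the offset reduced this to 0.39 (QL adjusted p = 6.65e-23 and 1.5e-09). For OAS2, OAS3, IFI6 and IFIT1 the interaction with the offset was 0.88, 0.43, 0.51 and 0.83, each called.

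**Figure D3:**
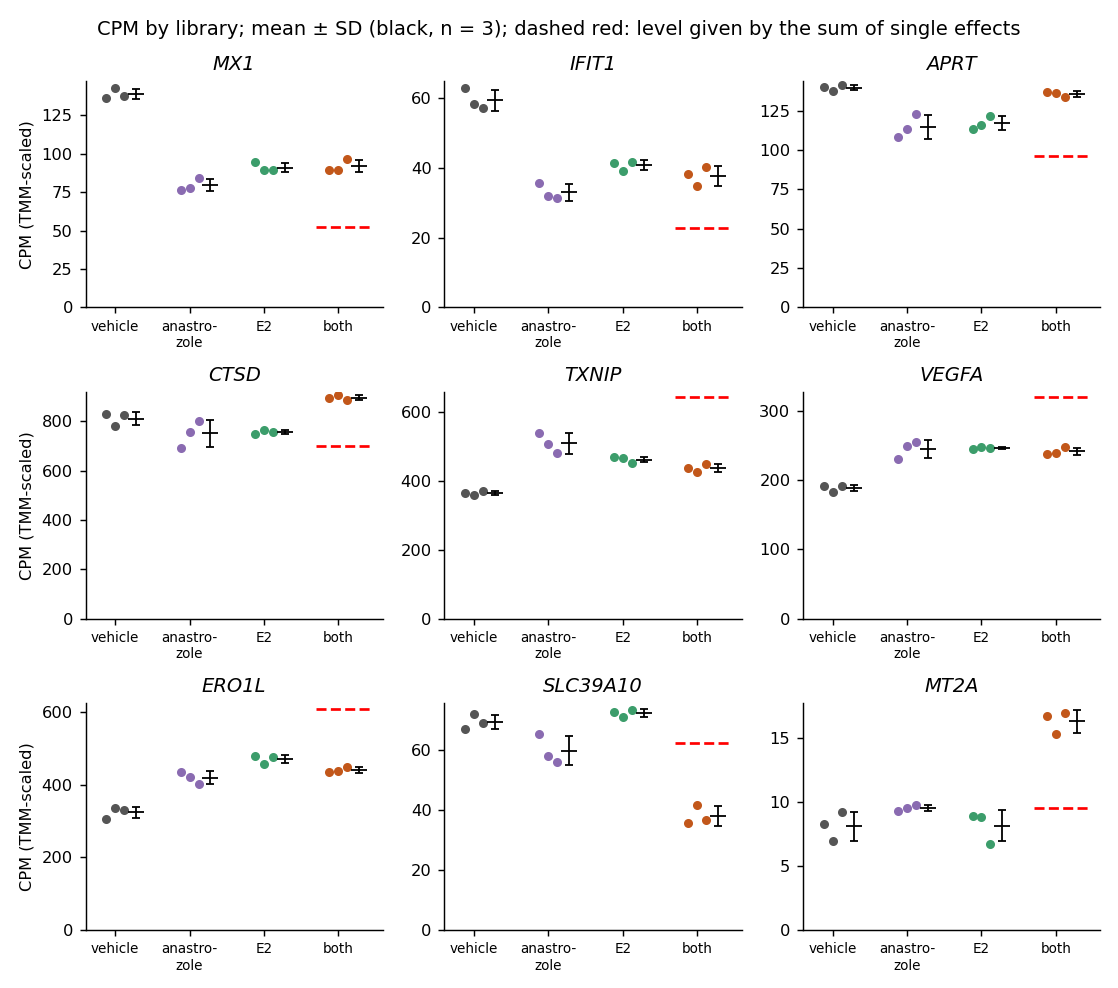
CPM in each library (points), with the group mean ± SD (black, n = 3), for 9 genes, and the combination level that the single log2 effects add up to (dashed red). MX1, IFIT1, APRT and CTSD lie above that line in all 3 combination libraries, TXNIP, VEGFA, ERO1L and SLC39A10 below it, and the MT2A combination libraries lie above it and above all other libraries.

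Hypoxia-inducible genes are controlled by HIF1A and EPAS1, which pair with ARNT and bind the core ACGTG. They supply glycolysis, angiogenesis and oxygen-dependent protein folding. The core lay, on either strand, in 21.4% of all RefSeq promoters (GRCh38.p14) and in 29 of the 45 list members with a promoter (64.4%). The promoters of ERO1L (named ERO1A by RefSeq) and P4HA1 are shown since both were among the 8 most significant genes below the sum. Capitals mark the core, which reads CACGT here because both matches are on the opposite strand.
ERO1L (chr14:52695509-52695808, minus strand): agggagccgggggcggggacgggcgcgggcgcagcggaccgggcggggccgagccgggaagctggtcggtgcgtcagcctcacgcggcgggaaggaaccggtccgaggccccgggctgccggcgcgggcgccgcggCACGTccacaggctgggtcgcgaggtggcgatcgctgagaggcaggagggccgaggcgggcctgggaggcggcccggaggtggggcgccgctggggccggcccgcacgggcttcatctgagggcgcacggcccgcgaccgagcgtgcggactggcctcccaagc
P4HA1 (chr10:73096817-73097116, minus strand): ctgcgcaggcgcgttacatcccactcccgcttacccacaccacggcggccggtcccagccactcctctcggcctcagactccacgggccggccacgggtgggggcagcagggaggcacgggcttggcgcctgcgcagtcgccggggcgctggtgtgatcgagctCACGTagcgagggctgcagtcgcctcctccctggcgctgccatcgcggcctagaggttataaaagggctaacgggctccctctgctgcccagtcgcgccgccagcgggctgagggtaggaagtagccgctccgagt
The match lies at bases -114 to -110 from the start in ERO1L and at -86 to -82 in P4HA1.

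Of the 50 hypoxia and glycolysis genes tested, 18 were called below the sum (36%) and 3 above (6%), against 4.93% and 5.93% of all genes. With the offset 18 were below and none above, against 1.38% and 1.34% of all genes, and 12 were below in both fits. Among the 47 members averaging at least 3 log2 CPM the median anastrozole, E2 and combination effects were 0.077, 0.142 and 0.162, and the median interaction was -0.098 (-0.1 with the offset), against -0.003 (0.002) over all genes. The combination thus moved the typical member about as much as E2 did alone. Leaving out vehicle c or combination b reduced the members called below the sum to 13 each, and other single libraries left 15 to 21.

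ERO1L, the oxidase that re-forms the disulfide donor of the endoplasmic reticulum (chr14:53106633-53162618), was the most significant member without the offset. ERO1L measured 306.7, 335.7 and 330.7 CPM in the vehicle libraries, 436.6, 421.1 and 402.4 after anastrozole, 478.7, 457.0 and 476.7 after E2 and 436.3, 437.3 and 450.2 after the combination. All treated libraries exceeded all vehicle libraries, and the combination overlapped anastrozole and stayed under every E2 library. The additive level was 609.7 CPM and the interaction was -0.47 ± 0.052 (log2, SE), QL adjusted p = 8.53e-16. With the offset it was -0.31 (QL adjusted p = 5.01e-10). P4HA1, a subunit of the prolyl hydroxylase that matures collagen (chr10:74766975-74856732), rose by 0.32 with anastrozole, 0.43 with E2 and 0.32 with both (interaction -0.44 ± 0.056 (log2, SE), QL adjusted p = 4.15e-12, and -0.32 with the offset). VEGFA, the main angiogenic growth factor (chr6:43737921-43754224), gave the plainest example of a response that did not add up. VEGFA measured 191.0, 183.2 and 191.6 CPM in the vehicle libraries, 230.6, 250.0 and 254.7 after anastrozole, 245.6, 247.6 and 246.1 after E2 and 237.7, 239.7 and 247.8 after the combination. Every treated group lay clear of vehicle and overlapped the other treated groups, with effects of 0.38, 0.39 and 0.36. The interaction was -0.41 ± 0.056 (log2, SE), QL adjusted p = 3.53e-10, and unlike most genes called below the sum its transcript is above the median in GC content, so the offset enlarged the departure to -0.51 (QL adjusted p = 6.55e-24).

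TXNIP, which binds thioredoxin and restrains glucose uptake (chr1:145438490-145442635), was the most significant gene below the sum. TXNIP measured 365.0, 361.0 and 371.5 CPM in the vehicle libraries, 539.9, 508.2 and 480.3 after anastrozole, 468.8, 466.1 and 453.5 after E2 and 438.1, 426.5 and 448.4 after the combination. The combination libraries lay above vehicle but under every library of either single agent, against an additive level of 644.5 CPM. The interaction was -0.56 ± 0.051 (log2, SE), QL adjusted p = 1.69e-23, and -0.48 with the offset (QL adjusted p = 1.95e-26). E2 raised TXNIP by 0.34 without anastrozole while its effect on top of anastrozole was -0.22. SLC4A7, a sodium bicarbonate cotransporter, KLHL24, a ubiquitin ligase adaptor, and TMEM123, a cell surface mucin, completed the leading genes below the sum, at -0.48, -0.50 and -0.38 (QL adjusted p = 1.55e-13, 3.61e-12 and 4.47e-11). All 3 have transcripts of lower GC content than the median, and the offset brought them to -0.31, -0.34 and -0.22, still called.

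APRT, the adenine salvage enzyme, was among the leading genes above the sum outside the interferon group (chr16:88875747-88878345). APRT measured 140.3, 137.7 and 141.3 CPM in the vehicle libraries, 108.2, 113.3 and 122.9 after anastrozole, 113.3, 116.0 and 122.0 after E2 and 137.0, 136.1 and 133.6 after the combination. Both single agents put every library under every vehicle library, while the combination lay above every single-agent library and just short of vehicle. The effects were -0.29 and -0.26 with the single agents and -0.04 in the combination, and the interaction was 0.50 ± 0.062 (log2, SE), QL adjusted p = 2.83e-12 (0.26 with the offset). HNRNPM, a splicing factor, lay 0.38 above the sum (0.27 with the offset), whereas LUC7L3, a spliceosome component, lay below it at -0.33 (-0.16). Of 61 splicing factors 8 were above (13.1%) and 6 below (9.84%), against 5.93% and 4.93% of all genes. With the offset 14 were above (23%) and 1 below (1.64%), against 1.34% and 1.38%, and 3 of those above were so in both fits.

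A small set of genes changed mainly when both agents were present. SLC39A10 imports zinc across the plasma membrane (chr2:196440701-196602426). SLC39A10 measured 67.0, 71.9 and 69.1 CPM in the vehicle libraries, 65.3, 58.0 and 56.1 after anastrozole, 72.6, 71.0 and 73.5 after E2 and 35.5, 41.6 and 36.7 after the combination. The combination libraries lay under all the others, whereas the E2 libraries overlapped vehicle. The anastrozole effect was -0.21 and that of E2 0.06, while that of the combination was -0.87, and the interaction was -0.72 ± 0.079 (log2, SE), QL adjusted p = 2.71e-16 (-0.57 with the offset). MT2A encodes a metallothionein that buffers intracellular zinc and is induced by the metal (chr16:56642496-56643409). MT2A measured 8.25, 6.92 and 9.18 CPM in the vehicle libraries, 9.30, 9.50 and 9.77 after anastrozole, 8.91, 8.80 and 6.73 after E2 and 16.7, 15.3 and 16.9 after the combination. All 3 combination libraries lay above the other 9, and the interaction was 0.77 ± 0.169 (log2, SE), QL adjusted p = 0.000264. The metallothioneins are a family of similar sequences, so reads may be shared among its members. Among 28 zinc transporters and metallothioneins tested, 3 were above the sum (10.7%) and only SLC39A10 below it (3.57%), against 5.93% and 4.93% of all genes. With the offset 2 were above (7.14%) and SLC39A10 below (3.57%), against 1.34% and 1.38%.

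Only 3 called genes went beyond the sum with single effects of the same sign, and in none of them did both single effects pass their tests. With the offset SLC39A10 also took this form. Besides MT2A these were SERPINA3, a secreted protease inhibitor, and CSRP1, a LIM-domain protein of the actin cytoskeleton, which was named after its values were seen. SERPINA3 measured 37.8, 38.3 and 39.3 CPM in the vehicle libraries, 39.7, 42.0 and 34.5 after anastrozole, 36.9, 42.0 and 41.9 after E2 and 50.3, 47.8 and 48.8 after the combination. The single-agent libraries overlapped vehicle and the combination libraries lay above all others (interaction 0.27 ± 0.094 (log2, SE), QL adjusted p = 0.0406). This call was lost on leaving out any vehicle library, anastrozole c, E2 a, or combination a or c (QL adjusted p between 0.0577 and 0.17), and the offset left 0.18 (QL adjusted p = 0.342). It was also lost with filterByExpr, the DESeq2 Wald test, limma-voom, the likelihood ratio test and thinning to the smallest library. CSRP1 had an interaction of 0.26 (QL adjusted p = 0.00762), which was 0.0524 without vehicle a. RIMS4, a presynaptic scaffold gene, and CISH, a suppressor of cytokine signalling, were among 34 genes in which the single effects pointed opposite ways and the combination exceeded both. RIMS4 was -0.24 with anastrozole, 0.03 with E2 and 0.27 with both (interaction 0.48 ± 0.082 (log2, SE), QL adjusted p = 1.26e-06, 0.29 with the offset and still called, but not with the offset when anastrozole c was left out, QL adjusted p = 0.109). CISH had an interaction of 0.47 (QL adjusted p = 0.00618) that was not called with the offset (0.33).

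IL32 and TNFAIP3 were raised strongly by each agent but hardly further by both. IL32 is a proinflammatory cytokine (chr16:3115298-3132193). IL32 measured 3.40, 3.73 and 4.12 CPM in the vehicle libraries, 9.52, 9.40 and 10.0 after anastrozole, 8.44, 9.51 and 8.82 after E2 and 10.6, 11.3 and 10.9 after the combination. The combination libraries lay above all others, yet at less than the additive level of 23.0 CPM, and the interaction was -1.08 ± 0.194 (log2, SE), QL adjusted p = 4.01e-06 (-1.25 with the offset). TNFAIP3, the A20 deubiquitinase that ends NF-kB signalling, had effects of 0.65, 0.86 and 0.87 and an interaction of -0.65 ± 0.163 (QL adjusted p = 0.00197). IER3, an immediate early gene controlled by the same pathway, lay -0.34 below the sum, and -0.50 with the offset (QL adjusted p = 0.000161 and 8.65e-12). Of the 30 AP-1 and immediate early genes, 3 were below the sum (10%, against 4.93% of all genes) and none above, and with the offset 4 (13.3%, against 1.38%) and none.

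Estrogen-induced genes are the classical readout of receptor activity. Of 38 tested, 8 were above the sum (21.1%) and 1 below (2.63%), against 5.93% and 4.93% of all genes. With the offset 2 were above (5.26%) and 1 below (2.63%), against 1.34% and 1.38%, and none of these was among the genes called without it. Over the 33 members averaging at least 3 log2 CPM the median anastrozole effect was -0.054, the median E2 effect 0.137 and the median combination effect 0.176, against -0.004, 0.004 and -0.004 over all genes. GREB1, an estrogen receptor cofactor and target (chr2:11622467-11782914), followed these medians. GREB1 measured 508.3, 532.0 and 525.0 CPM in the vehicle libraries, 470.1, 466.0 and 482.0 after anastrozole, 565.0, 580.1 and 564.2 after E2 and 593.9, 597.6 and 585.2 after the combination. Every anastrozole library lay under every vehicle library, every E2 library above them, and every combination library above those of E2. The E2 effect was 0.13 without anastrozole and 0.33 with it, a difference of 0.20 ± 0.05 (QL adjusted p = 0.00221), which fell to 0.12 with the offset and was then not called (QL adjusted p = 0.102). PGR, the progesterone receptor gene, behaved the other way. Its interaction was 0.06 ± 0.045 (QL adjusted p = 0.508) and was called only with the offset, at 0.16 (QL adjusted p = 0.00493).

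CTSD, the lysosomal protease cathepsin D and an estrogen target (chr11:1773982-1785803), crossed the vehicle level. CTSD measured 829.7, 780.1 and 824.3 CPM in the vehicle libraries, 693.0, 757.9 and 801.9 after anastrozole, 750.3, 766.6 and 756.0 after E2 and 894.4, 907.6 and 885.4 after the combination. The E2 libraries and most anastrozole libraries lay under vehicle and all combination libraries above it (interaction 0.35 ± 0.049 (log2, SE), QL adjusted p = 3.96e-10). Its transcript has 64% GC, and the offset left 0.10, not called (QL adjusted p = 0.147). SLC7A5, a leucine transporter gene, went from 0.25 to 0.04 with the offset and lost its call as well. TFF1, a secreted trefoil peptide widely used as an estrogen marker, was scarce here, between 0.866 and 2.25 CPM, and its interaction of 0.63 ± 0.427 was not called (QL adjusted p = 0.421). At that depth the error was as large as most departures called. Of 27 receptors, pioneer factors and coregulators, 5 were above (18.5%) and 2 below (7.41%) the sum, with 1 each after the offset (3.7%), against 5.93% and 4.93%, and 1.34% and 1.38%, of all genes. The remodeler SMARCA4 lay at 0.26, and the offset left 0.06, not called.

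Luminal identity genes with a high GC content gave the same picture. SPDEF, a luminal transcription factor, and KRT19, a luminal keratin, lay 0.40 and 0.22 above the sum (QL adjusted p = 5.84e-10 and 5.03e-05), and 0.14 and 0.01 with the offset, where neither was called. ERBB2, the HER2 receptor gene, was lowered by E2 (-0.37) more than by the combination (-0.18). Its interaction of 0.30 was 0.15 with the offset and remained called (QL adjusted p = 3.36e-06 and 0.0263). Of the 46 ERBB, IGF and PI3K signalling genes 9 were above (19.6%) and 5 below (10.9%), with 1 and 2 after the offset (2.17% and 4.35%), against 5.93% and 4.93%, and 1.34% and 1.38%, of all genes.

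Sterol and fatty acid synthesis genes, controlled by the SREBP factors, gave more calls above the sum than below. Of the 38 members 36 averaged at least 3 log2 CPM, where genes in general were called more often than over all genes, and the difference was not tested. Among 38 tested, 11 were above (28.9%, against 5.93%) and 4 below (10.5%, against 4.93%). With the offset 2 were above (5.26%, against 1.34%) and none below. FASN, the fatty acid synthase gene, measured 1205, 1156 and 1202 CPM in vehicle, 854.5, 961.7 and 1102 after anastrozole, 913.1, 924.9 and 900.3 after E2 and 972.4, 1023 and 985.5 after the combination. The anastrozole libraries were widely spread and anastrozole c lay above the combination. Its interaction was 0.41 ± 0.062 (log2, SE), QL adjusted p = 3.41e-06. It was 0.14 with the offset (QL adjusted p = 0.0109) and missed the threshold without combination a (QL adjusted p = 0.0518). MVD, which makes isopentenyl diphosphate for cholesterol, had effects of -0.39, -0.27 and -0.27, with an interaction of 0.38 that the offset reduced to 0.13, not called.

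Genes for oxidative phosphorylation and for the ribosome gave more calls above the sum than below, to be read against 5.93% of all genes above (1.34% with the offset). Nearly all members averaged at least 3 log2 CPM, where genes in general were called more often too, and the difference was not tested. Of 76 nuclear genes for respiratory chain and ATP synthase subunits 14 were above (18.4%) and 1 below (1.32%), and with the offset 9 (11.8%) and none, with 6 above in both fits. Their median interaction was 0.1 and 0.094 in the 75 members averaging at least 3 log2 CPM, against -0.003 and 0.002 over all genes. Single libraries stood apart within the groups. The summed level was 7986 CPM in anastrozole c against 8726 and 8596 in anastrozole a and b, and 9100 in vehicle a against 8544 and 8683 in the other vehicle libraries. It was 8434 in E2 a against 8755 and 8877 in E2 b and c, and 8954 in combination a against 8490 and 8590, and the groups overlapped. NDUFB11 and NDUFB2, subunits of complex I, lay 0.34 ± 0.066 and 0.50 ± 0.104 above the sum (QL adjusted p = 2.59e-05 and 8.48e-05), and 0.38 and 0.57 with the offset. Of 79 cytosolic ribosomal protein genes 13 were above (16.5%) and none below, and with the offset 4 (5.06%) and none, with 3 in both fits. Their summed level was 48600 CPM in anastrozole c against 55220 and 53810 in its group, 57510 in combination a against 53380 and 54200, and 55640 in vehicle a against 51450 and 52430. In E2 a it was 50690 CPM against 53560 and 55760. RPS16, a small-subunit protein, lay 0.30 above the sum (0.28 with the offset), though ribosomal protein genes have many processed copies that can take their reads. Proteasome subunits had 3 of 31 above the sum (9.68%) and none below, and with the offset again 3, only 1 of them the same gene.

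Most calls in the remaining lists were lost with the offset. Their counts are to be read against 5.93% of all genes above and 4.93% below, and 1.34% and 1.38% with the offset. Translation factors had 6 above and 7 below of 39, led by EIF5A at 0.30 and EIF4A2 at -0.22, and with the offset 1 was above and 2 below, with EIF5A narrowly called (0.15, QL adjusted p = 0.0466, or 0.0793 when anastrozole c was also left out) and EIF4A2 not (-0.07). Mitosis and G2/M genes had 1 above and 11 below of 46, and none and 1 with the offset. Replication and G1/S genes had 10 above and 6 below of 56, and 1 and none. Chaperones and degradation factors of the endoplasmic reticulum had 1 above and 6 below of 34, including CANX and HSP90B1 at -0.23 each, and with the offset none and 1, with CANX at -0.11 and HSP90B1 at -0.10 not called. ATF4 targets and tRNA synthetases had 5 above and 5 below of 48, and none and 5 with the offset. Zinc finger genes named ZNF had 9 above (1.7%) and 37 below (6.98%) of 530, and 3 (0.566%) and 4 (0.755%) with the offset. ZNF217, an oncogenic repressor, stayed below the sum at -0.34 and -0.26 (QL adjusted p = 1.29e-07 and 3.91e-06), while ZNF512B lost its call (0.36 and 0.13). Cytosolic chaperones had 5 above and 2 below of 31, and 3 and 1. Actin and adhesion genes had 14 above and 6 below of 52, and 1 each. Lysosomal genes had 8 above and 4 below of 51, and 1 and none. Replication-dependent histones had none above and 2 below of 56, and with the offset none and 2, of which 1 was the same gene. Nuclear long noncoding RNAs had none above and 1 below of 24, and 1 and none.

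**Figure D4:**
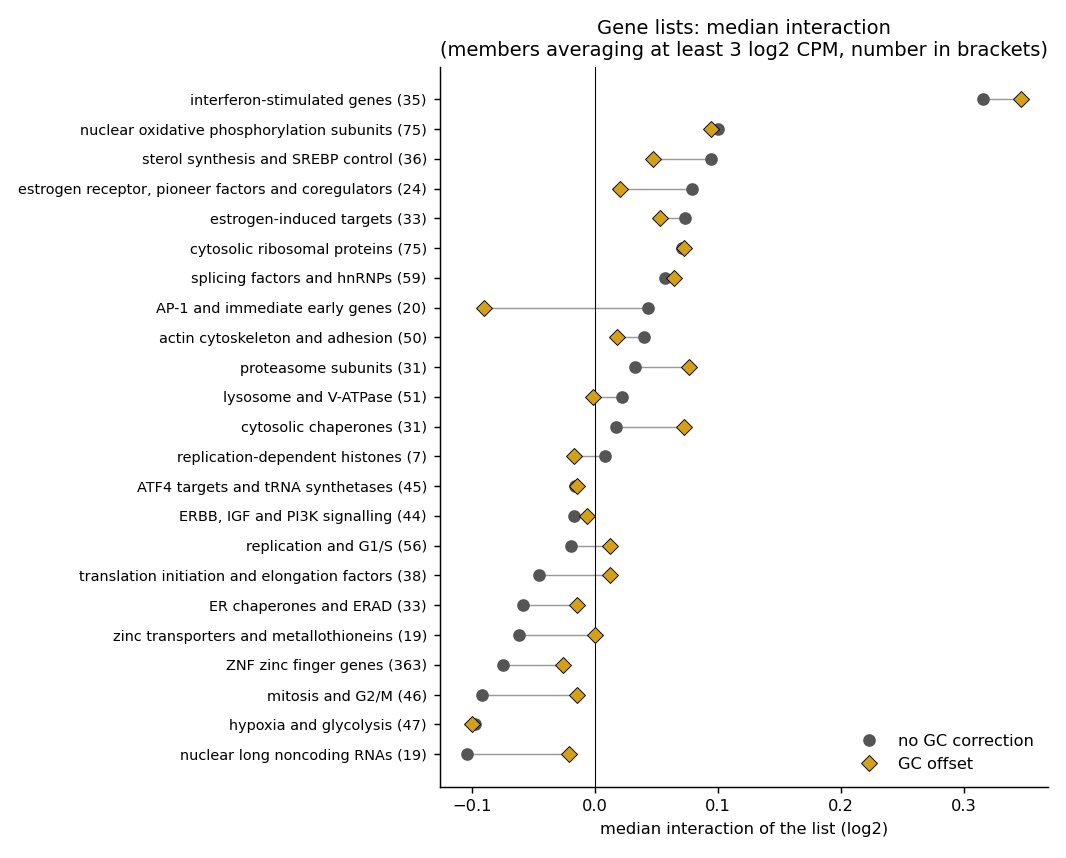
Median interaction (log2) of each gene list over its members averaging at least 3 log2 CPM, without GC correction (grey circles) and with the GC offset (yellow diamonds). The interferon-stimulated genes lie at 0.315 and 0.346 and the hypoxia and glycolysis genes at -0.098 and -0.1, while the AP-1 and immediate early genes move from 0.043 to -0.09.

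The departures took few forms. In 1354 of the 2295 called genes (59%) both single effects had the same sign and the combination effect kept it but was smaller than either, as in TXNIP and APRT. In 702 (30.6%) the combination lay on the other side of vehicle, as in CTSD. At least 1 of the 3 effects passed its own test in 230 of the 702, against 1171 of the 1354. With the offset CTSD did not keep this form, and its single effects were 0.02 and 0.04, neither past its test. In 164 (7.15%) the combination lay between the single effects, as in ERO1L, IFI6 and GNMT, the glycine methyltransferase gene (-0.46, -0.76 and -0.55, interaction 0.68, QL adjusted p = 4.47e-06). In only 6 genes did it exceed both and fall short of the sum, as in IL32, and in 3 it exceeded the sum. Where the single effects had opposite signs, the combination lay above both in 34 called genes and below both in 32, SLC39A10 among them. Over all genes averaging at least 3 log2 CPM, 30.2% had the form most frequent among the called genes and 20.5% the crossing form. With the offset the corresponding counts among 576 genes were 334 (58%), 117 (20.3%), 98 (17%), 9, 3, 6 and 8, and in 1 gene the combination lay between opposite single effects. The vehicle libraries and each set of single-agent libraries enter both a single effect and the interaction with opposite sign, so measurement error alone favours forms in which the combination does less than the sum. The forms are therefore a description without a test. On the linear scale of CPM, all 2295 genes departed from additivity in the same direction as on the log2 scale. The arithmetic fixes this agreement for genes above the sum with single effects of the same sign. It also fixes it for genes below the sum with single effects of opposite sign. For 566 of the 576 called with the offset the CPM departure had the sign of the interaction, but those CPM values carried no offset.

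**Figure D5:**
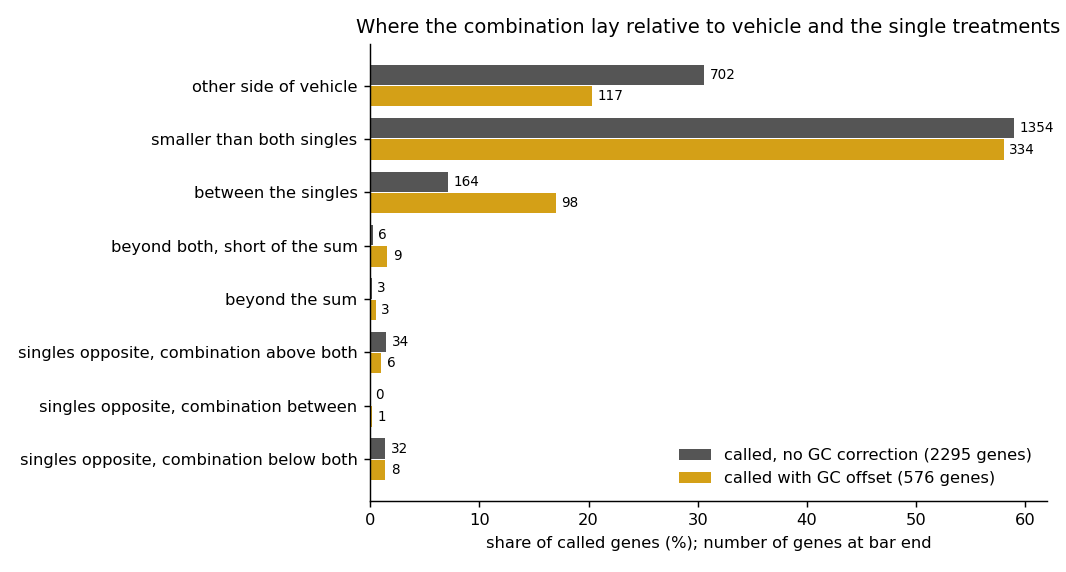
Share of called genes (x axis, percent) in each form of departure, without GC correction (grey, 2295 genes) and with the GC offset (yellow, 576 genes), with gene numbers at the bar ends. The form in which the combination effect is smaller than both single effects leads in both, with 1354 and 334 genes.

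Read through the tests of the single effects, 1344 called genes had at least 1 single effect past its own test and a combination that was not (298 of 576 with the offset), and 240 had at least 1 single effect and the combination past the test (177). In 41 only the combination passed (8), and in 670 none of the 3 did (93). The interaction can also be read as a change in what each agent does in the presence of the other. In 146 called genes the E2 effect passed its test both without and with anastrozole and had opposite signs, in 198 the anastrozole effect did so without and with E2, and 266 genes did either. Of these, 118 averaged at least 3 log2 CPM and had an interaction also called with the offset, though the 2 opposite effects need not both pass their tests with it. APRT was one, with an E2 effect of -0.26 without and 0.24 with anastrozole. IFI6 had -0.29 and 0.35. The low-abundance gene FOXJ1, a regulator of motile cilia, had an E2 effect of -0.47 without anastrozole (QL adjusted p = 0.000589) and 0.38 with it (QL adjusted p = 0.0151), and its interaction was 0.85 (0.56 with the offset, still called). With the offset its E2 effects were -0.32 without anastrozole (QL adjusted p = 0.0431) and 0.24 with it, the latter not called (QL adjusted p = 0.258). CTXN1, coding for cortexin 1, had an interaction of 0.85 and 0.45, the latter not called unless anastrozole c was also left out (QL adjusted p = 0.0388), and a transcript of 72.8% GC.

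Markers of cell types other than luminal epithelium were low. Their calls are to be read against 5.93% of all genes above the sum and 4.93% below, and 1.34% and 1.38% with the offset. The 11 luminal markers summed to between 11800 and 12990 CPM, with KRT19 the most abundant, and 3 of them were above the sum (27.3%), with the offset 1 (9.09%). The 8 fibroblast markers summed to between 81.2 and 101.9 CPM, nearly all from COL1A1, the only one called (12.5%), and none was called with the offset. The 8 immune markers summed to 8.44 to 15.1 CPM, with 1 below the sum in both fits (12.5%), and the 7 basal markers to between 12.0 and 18.2 CPM, with ACTA2 leading and none called. The 5 endothelial markers stayed between 0.0789 and 0.622 CPM, led by VWF with none called, and the 3 adipocyte markers between 1.445 and 2.878 CPM, led by PLIN1 with 1 below the sum (33.3%) and none with the offset.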

How the data were processed

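The authors aligned reads with TopHat2 2.0.14 and Bowtie2 2.2.6 and deposited raw HTSeq counts per gene, which hold 32.7 to 33.5% of the reads listed per library (no feature 58.6 to 59.9%, not unique 6.6 to 7.4%). The strand setting and annotation are not given in the sources used here, so overlapping and antisense genes cannot be told apart, and the labels name polyA RNA while the library preparation is of total RNA. Genes with 0 counts throughout (4238) were removed. edgeR 4.0.16 (R 4.3.3) was fitted to all 12 libraries with TMM scaling, group means and robust quasi-likelihood dispersion, and the interaction contrast was tested with Benjamini-Hochberg adjustment over 21132 genes. Simple effects came from the same fit. GC content and GRCh37 positions came from GENCODE transcripts, matched for 98.3% of genes averaging at least 3 log2 CPM. The GC offset was a lowess fit (span 0.5) per library. DESeq2 1.42.0 and limma 3.58.1 served as alternatives. Named genes were the 8 most significant on each side at 3 log2 CPM or more, the 2 largest of each form, the 2 most significant of each of 23 pathway and 6 marker lists, the most abundant marker, and 7 fixed genes, and the text gives those that carry a result; some are not reported here. The members and lists were chosen with earlier results of these data known. The sample labels do not say that the libraries came from separate cultures, though the study speaks of independent experiments. The p-values therefore measure only the spread between these samples, and floors cover counting error only. That spread was largely pooled over genes of like abundance, so the SE and p-value are not those of a gene's own replicates alone. APRT and HELZ2 had an SE of 0.062 and 0.063, while the SD of their anastrozole libraries was 7.45 and 13.58 CPM.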

Additional observations from a re-analysis of the deposited data

How the results depend on the processing

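The number of departing genes (2295, 1253 above and 1042 below) stayed within 1.5 times under DESeq2 size factors, library size alone, filterByExpr, the likelihood ratio test, the replicate block and thinning to 9914253 reads, with 1810 to 2300 genes. Only genes averaging 7 log2 CPM or more gave 657 (364 above, 293 below), from 1707 tested. The DESeq2 Wald test called 1531 genes, 805 of them above the sum, but gave no adjusted p for 10653 of the 21132 genes. With limma-voom 1539 were called, 826 of them above. The GC offset gave 576 (284 and 292), the offset with the replicate block 643 (324 and 319), and the offset without anastrozole c, an alternative chosen after seeing the data, 566 (287 and 279). The cause of these differences was not tested. Leaving out 1 library at a time gave 1537 to 3206 genes, 824 to 1734 above and 713 to 1472 below. In every alternative, all genes shared with the 2295 kept their direction. The replicate letters share only a letter: of 18 same-letter pairs of libraries, deviations from the group means correlated between -0.141 and 0.324, with 7 over 0.1, and the fit with the letter as a block called 2218 genes (1242 above, 976 below). Of the 49 genes with an interaction in the text none reversed. Of the 46 called, 32 kept their call with the offset and 14 lost it, while PGR gained one. In the fits without 1 library 44 to 46 kept it. Departures on the CPM scale, computed without the offset, had the sign of the log2 interaction in all 2295 and in 566 of the 576 called with the offset. For many of the 2295 the arithmetic fixes this agreement, so it is not a test of the calls. Depth limits genes near 0.3 CPM, where 3 reads are the floor.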
